A study of Rattus norvegicus with 8 samples.

Results

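S100b, Ndrg2, Fabp5, Nes, Glul, Mt3, Clu and Vim are genes by which astroglia and their progenitors are commonly recognised. Here every probe set annotated to any of them was followed through 8 oligonucleotide arrays of rat glioma cells. The annotation gave 13 probe sets for the 8 genes, of 8740 probe sets and 4736 named genes on the array, and all 13 had enough signal to be tested. The genes were chosen by name, but earlier results of these data were known when the group was drawn up. Their counts below therefore describe these genes and are not an independent test.

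RNA came from C6 cells, an established line from a rat glioma that keeps some features of astrocytes and of immature glia. By sample title the arrays formed 4 groups of 2: a first pair was titled C6 slow and C6 fast, the other C6SPGFP slow and C6SPGFP fast, here called the C6 and the C6SPGFP set. Migration is the subject named by the labels. The sources used here do not state the meaning of C6SPGFP, the way slow and fast cells were obtained, or if replicates came from separate cultures. The p-values therefore measure the spread between these samples only, which may be technical.

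Astroglia take up glutamate, turn it into glutamine, buffer metal ions and carry lipids for neurons, and several of these genes encode the proteins that do so. S100b encodes a calcium-binding protein of mature astrocytes and other glia. Ndrg2 encodes a cytoplasmic protein of the N-myc downstream-regulated family that is enriched in astrocytes. Fabp5 encodes a carrier of long-chain fatty acids found in radial glia and neural progenitors. Nestin (Nes) and vimentin (Vim) form intermediate filaments, nestin mainly in neural progenitors and vimentin in immature glia and mesenchymal cells. Glul encodes glutamine synthetase. Mt3 encodes the brain metallothionein, which binds zinc and copper, and Clu encodes clusterin, a secreted chaperone. In bulk RNA of this kind, fewer cells that express a gene and less RNA per cell cannot be told apart.

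The deposited signals had a 2% trimmed mean of 100.1 to 105.8 on 7 arrays and of 500.5 on C6SPGFP fast replicate 1. Arrays were therefore quantile normalised, and all signals below are normalised signals. Log2 changes are differences of log2(signal + 8), so they understate the change of a gene whose signal is low in one group. Changes were tested with limma on 6684 probe sets, and a change was called at a Benjamini-Hochberg adjusted p under 0.05. Replicates of a group correlated with Pearson's r of 0.9693 to 0.9778, taken over probe sets, which do not count as replicates. Gapdh and beta-actin control probe sets had 3′ to 5′ signal ratios between 0.967 and 1.122 on the 8 arrays. The hexokinase ratio was 2.23 and 1.88 in C6 slow, 1.98 and 1.57 in C6 fast, 1.72 and 1.49 in C6SPGFP slow, and 1.72 and 1.61 in C6SPGFP fast cells, and its part in the results was not tested. No detection call was used, so a signal of a few units is not shown to be above background. Precision is limited by having 2 arrays a group.

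In fast C6 cells, S100b, Ndrg2, Fabp5, Nes and Glul were lower than in slow C6 cells, while Mt3, Clu and Vim did not pass the test. Of the 13 probe sets 7 were called, all 7 lower in fast cells, against 6.66% of all probe sets tested, of which 2.69% were called higher and 3.96% lower. The median log2 change of the 13 was -0.85, that of all tested probe sets 0.01. Of 35 other astroglial and glial progenitor genes, described below, 8.57% were called in C6, with a median change of -0.02. None of the 13 was called between fast and slow C6SPGFP cells by limma, where 1.39% of all probe sets were called (1.06% higher), and 3 of the 13, Fabp5, Mt3 and Vim, had an unadjusted p under 0.05, as did 9.69% of all probe sets. The arrays of those groups did not overlap for 8 of the 13, against 44.1% of all probe sets. The median change of the 13 there was -0.01, with 6 positive and 7 negative. The difference of the changes, C6SPGFP minus C6, was positive for all 13 and was called for 5 of them, in S100b, Ndrg2, Fabp5 and both Nes probe sets. Of all probe sets, 3.82% were called on this difference, 2.71% with a positive and 1.11% with a negative value. The 5 became 3 without C6SPGFP slow replicate 1 and 3 without C6SPGFP fast replicate 1.

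**Figure D1:**
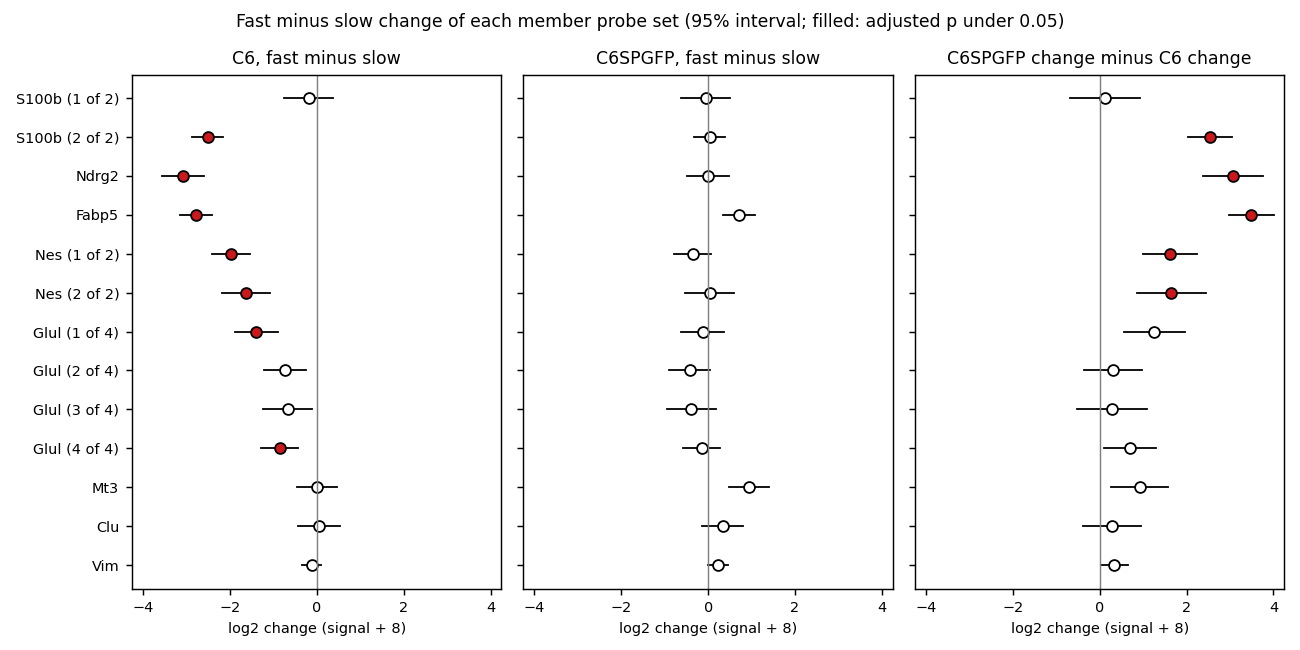
Log2 change between fast and slow cells for each member probe set in C6 (left) and in C6SPGFP (middle), and the C6SPGFP change minus the C6 change (right). Points are limma estimates with 95% intervals, and filled points have an adjusted p under 0.05. The 7 filled points on the left all lie below 0, none is filled in the middle, and the 5 filled points on the right lie above 0.

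S100b was measured by a bright and a dim probe set. The bright one, S53527mRNA_s_at, read 421 and 395 on the C6 slow arrays, 56.8 and 74.95 on C6 fast, 1221 and 1230.0 on C6SPGFP slow, and 1275 and 1247 on C6SPGFP fast. The signal was thus lowest in fast C6 cells, intermediate in slow C6 cells and highest in both C6SPGFP groups, with no overlap between the C6 groups. From slow to fast C6 cells S100b fell 5.67-fold, a log2 change of -2.50 ± 0.16 (SE, adjusted p = 5.28e-05). Between slow and fast C6SPGFP cells the change was 0.04, with a 95% interval from -0.31 to 0.40. The changes differed by 2.55 ± 0.22 (adjusted p = 0.000433). C6SPGFP cells had more S100b signal than C6 cells among slow cells (log2 change 1.57 ± 0.16, adjusted p = 0.00132) and among fast cells (4.11 ± 0.16, 17.3-fold, adjusted p = 2.12e-06).

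The dim S100b probe set, rc_AI146214_at, gave 13.7 and 11.5 in C6 slow, 13.2 and 7.39 in C6 fast, 19.3 and 21.4 in C6SPGFP slow, and 18.5 and 20.0 in C6SPGFP fast cells. Both C6SPGFP groups lay above both C6 groups here too, but slow and fast C6 arrays overlapped. It was not called in any of the 5 comparisons. Its change in C6 was -0.19 (95% interval -0.75 to 0.38). The dim probe set thus did not show the fall of the bright one. With its signal this near the added 8 units, a log2 change as large as that of the bright one was out of reach. Over the alternative settings, which included a pseudocount of 1, its C6 change still lay only between -0.42 and 0.04. The signal was also not shown to be above background.

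Ndrg2 had signals of 82.5 and 73.85 in C6 slow cells and of 1.9 and 2.475 in C6 fast cells. In C6SPGFP it gave 46.8 and 39.2 in slow and 46.4 and 38.8 in fast cells. The C6 fast arrays were thus the only ones with a signal of a few units, not shown to be above background, and the C6SPGFP groups overlapped each other. In C6 its log2 change was -3.08 ± 0.21 (SE, adjusted p = 8.48e-05). The size of the Ndrg2 change depended on the pseudocount, from -4.64 with 1 to -1.69 with 32, and the call did not. In C6SPGFP the change was -0.01 (95% interval -0.50 to 0.47), and the 2 changes differed by 3.07 ± 0.30 (adjusted p = 0.000806). Among fast cells C6SPGFP was higher by 2.31 ± 0.21 (adjusted p = 0.000219). Among slow cells it was at -0.76 ± 0.21 against C6, with no overlap of arrays but an adjusted p of 0.0778.

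Fabp5 read 665 and 750.3 in slow and 84.5 and 108 in fast C6 cells. In C6SPGFP it read 382 and 403 in slow and 638 and 654 in fast cells. The order of the group means was C6 fast, C6SPGFP slow, C6SPGFP fast and C6 slow, and no 2 groups overlapped. Fabp5 fell 6.89-fold in fast C6 cells, a log2 change of -2.79 ± 0.16 (SE, adjusted p = 3.89e-05). In C6SPGFP its change was 0.71 ± 0.16 (unadjusted p = 0.0021, adjusted p = 0.106), so its fast cells lay above its slow cells without passing. When only the C6SPGFP arrays were fitted the adjusted p was 0.0489. The difference of the changes was 3.49 ± 0.23 (adjusted p = 0.000114). Among slow cells C6SPGFP was lower than C6 (-0.83 ± 0.16, adjusted p = 0.0206), and among fast cells it was higher (2.66 ± 0.16, adjusted p = 2.15e-05). Without C6 slow replicate 1 the call among slow cells ended (adjusted p = 0.0548), as it did without C6 slow replicate 2 (0.0769), C6SPGFP slow replicate 1 (0.13) or C6SPGFP slow replicate 2 (0.118).

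Nestin was lower in fast C6 cells on both of its probe sets. M34384_at gave 931 and 936 in C6 slow, 189.9 and 279.9 in C6 fast, 916 and 1068 in C6SPGFP slow, and 825 and 717 in C6SPGFP fast cells. C6 fast stood well below the other groups, which lay near each other. The log2 change in C6 was -1.98 ± 0.19 (SE, adjusted p = 0.00042), and in C6SPGFP it was -0.36 ± 0.19 (adjusted p = 0.597). The dim probe set rc_AI030685_s_at gave 25.8 and 22.5, 2.6 and 2.29, 17.8 and 20.7, and 24.0 and 16.2 in the same order of groups, with a change of -1.62 ± 0.24 in C6 (adjusted p = 0.00475) and of 0.03 ± 0.24 in C6SPGFP (adjusted p = 0.985). With a pseudocount of 1 the C6 change of this dim Nes probe set was -2.87, and with 32 it was -0.70. Slow cells of the 2 sets did not differ past the threshold on either probe set (0.08, 95% interval -0.35 to 0.52, and -0.24, interval -0.79 to 0.32). Among fast cells C6SPGFP was higher by 1.70 ± 0.19 and 1.41 ± 0.24 (adjusted p = 0.000653 and 0.00536).

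The nestin changes differed between the sets by 1.62 ± 0.27 (adjusted p = 0.013) on M34384_at and 1.65 ± 0.34 (adjusted p = 0.0364) on rc_AI030685_s_at. Those calls were not firm. For Nes M34384_at the adjusted p was 0.0639 without C6SPGFP slow replicate 1 and 0.0712 without C6SPGFP fast replicate 1. For the dim Nes probe set the call ended whichever array was left out. Its adjusted p was then 0.11 and 0.0628 without C6 slow replicates 1 and 2, 0.0772 and 0.0901 without C6 fast replicates 1 and 2, 0.118 and 0.11 without C6SPGFP slow replicates 1 and 2, and 0.135 and 0.0581 without C6SPGFP fast replicates 1 and 2.

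Vimentin, the other filament gene of the group, was bright on every array. Its signal was 3082 and 2681 in C6 slow, 2594 and 2723 in C6 fast, 3256 and 3102 in C6SPGFP slow, and 3602 and 3831 in C6SPGFP fast cells. The highest group mean was 1.40 times the lowest, against 4.22 and 9.87 times for the nestin probe sets. In C6 its change was -0.11 (95% interval -0.33 to 0.11), and in C6SPGFP 0.22 (interval 0.0036 to 0.45, adjusted p = 0.506). Among fast cells Vim was called higher in C6SPGFP than in C6, by 0.48 ± 0.10 (SE, adjusted p = 0.0115). That call rested on the scaling. With each array scaled to a common trimmed mean in place of quantile normalisation, Vim read 3161 and 3539 in C6 fast and 3149 and 3576 in C6SPGFP fast cells, and the change was 0.01 (adjusted p = 0.987). On the deposited scale of the 7 like arrays it was 0.10 (adjusted p = 0.786). The call also ended without C6 fast replicate 1 (adjusted p = 0.0749) or C6SPGFP fast replicate 2 (0.0821).

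The 250 bases before the annotated start are given for S100b, Ndrg2 and Nes, which fell together in fast C6 cells, and for Mt3, whose signal separated the 2 sets. They are RefSeq promoter windows of assembly GRCr8, each read 5′ to 3′ on the strand of its gene. Of the 8 genes 6 had an entry, with 8 windows between them. Capitals mark matches, on either strand, to TATAAA (the TATA box), CCAAT (the CCAAT box), GGGCGG (the GC box), ACAAAG or ACAATG (letters bound by SOX factors) and TGCACNC or TGCGCNC (the core of metal response elements). The S100b window is chr20:12381082-12381331 on the minus strand. The 2 Ndrg2 windows are chr15:27083121-27083370 and chr15:27082503-27082752 on the minus strand. The Nes window is chr2:175736338-175736587 on the plus strand, and the Mt3 window is chr19:10856081-10856330 on the minus strand.
S100b: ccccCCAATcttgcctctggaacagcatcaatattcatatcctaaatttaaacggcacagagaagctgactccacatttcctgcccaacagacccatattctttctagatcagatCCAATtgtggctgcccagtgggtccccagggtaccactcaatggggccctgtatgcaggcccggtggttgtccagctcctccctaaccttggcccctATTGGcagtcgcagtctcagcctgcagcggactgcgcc
Ndrg2, upstream start: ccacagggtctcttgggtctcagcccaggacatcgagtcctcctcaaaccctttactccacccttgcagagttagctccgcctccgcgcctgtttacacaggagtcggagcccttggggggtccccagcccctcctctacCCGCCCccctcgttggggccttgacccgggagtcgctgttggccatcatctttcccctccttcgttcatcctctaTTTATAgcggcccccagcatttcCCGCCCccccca
Ndrg2, downstream start: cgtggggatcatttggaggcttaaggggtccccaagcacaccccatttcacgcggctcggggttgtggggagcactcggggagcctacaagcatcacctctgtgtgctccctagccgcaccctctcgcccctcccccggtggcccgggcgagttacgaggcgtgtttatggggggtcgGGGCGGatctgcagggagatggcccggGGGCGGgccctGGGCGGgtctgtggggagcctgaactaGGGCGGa
Nes: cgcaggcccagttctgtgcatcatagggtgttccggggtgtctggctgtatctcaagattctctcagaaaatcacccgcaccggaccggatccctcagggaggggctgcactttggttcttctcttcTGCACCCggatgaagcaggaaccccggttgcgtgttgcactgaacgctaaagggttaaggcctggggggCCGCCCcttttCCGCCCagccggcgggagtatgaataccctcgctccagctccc
Mt3: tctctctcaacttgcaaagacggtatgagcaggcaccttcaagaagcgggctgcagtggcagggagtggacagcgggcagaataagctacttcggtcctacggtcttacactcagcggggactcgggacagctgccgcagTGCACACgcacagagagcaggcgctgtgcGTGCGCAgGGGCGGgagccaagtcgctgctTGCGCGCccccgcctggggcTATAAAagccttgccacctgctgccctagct

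Between them the windows held different sets of these motifs. S100b held 3 CCAAT boxes and no GC box, while the Ndrg2 windows held 2 and 4 GC boxes and no CCAAT box, and Nes held 2 GC boxes. Of all 33360 distinct rat windows of this length, 34% held a CCAAT box and 30.5% a GC box. Mt3 held a TATA box from 31 to 26 bases before the start and 3 metal response cores, and Nes held 1 such core. The upstream Ndrg2 window held a TATA box on the opposite strand. A TATA box was found in 12.9% of all windows and a metal response core in 20.6%. None of the 8 windows held either SOX-type word, which 25.3% of all windows did. No 2 matches in the printed windows overlapped. A match is a description of letters, not a tested site, and no binding was measured.

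Glutamine synthetase was measured by 4 probe sets, M91652complete_seq_at, M91652complete_seq_g_at, rc_AA852004_s_at and rc_AI232783_s_at. In that order they gave 158 and 111, 369 and 270.5, 63.7 and 66.6, and 466 and 490.2 on the C6 slow arrays. On the C6 fast arrays they gave 43.7 and 47.6, 165 and 212, 31.2 and 46.2, and 231 and 296. All 4 were thus lower in fast than in slow C6 cells with no overlap, as were 9 of the 13 members in either direction, where 45.1% of all probe sets did not overlap. The log2 changes were -1.39 ± 0.22, -0.73 ± 0.21, -0.67 ± 0.25 and -0.85 ± 0.19 (SE), and the first and last were called (adjusted p = 0.00632 and 0.0297) while the others were not (0.0817 and 0.177). The first 2 probe sets come from the same sequence, so they are not independent measurements.

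In C6SPGFP, Glul gave 60.04 and 63.7, 233 and 262, 35.3 and 49.3, and 190.1 and 168 in slow cells. Fast C6SPGFP cells gave 60.4 and 51.55, 193 and 171, 33.7 and 26.95, and 176 and 145. C6 slow had the highest group mean on each probe set. The C6SPGFP changes lay between -0.42 and -0.13, and none was called. The difference of the Glul changes was not called on any probe set. It was 1.26 ± 0.31 (adjusted p = 0.0705) on the first, and passed there without C6 slow replicate 2 (0.0414). Among slow cells C6SPGFP was lower than C6 on the first (-1.01 ± 0.22, adjusted p = 0.0322) and last probe set (-1.38 ± 0.19, adjusted p = 0.00477), and among fast cells on the last (-0.68 ± 0.19, adjusted p = 0.0406).

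Several Glul calls lay near the threshold and ended when a single array was left out. Where that array was outside the groups compared, the log2 change stayed the same and only the spread shared by all groups was estimated anew. On the last probe set the C6 call was lost without C6 slow replicate 1 (adjusted p of 0.0905), C6 slow replicate 2 (0.0961), C6 fast replicate 1 (0.123), C6SPGFP slow replicate 1 (0.0579) or C6SPGFP slow replicate 2 (0.0572). On the first Glul probe set the call among slow cells ended without C6 slow replicate 1 (0.146), C6SPGFP slow replicate 1 (0.158), C6SPGFP slow replicate 2 (0.153), C6SPGFP fast replicate 1 (0.0588) or C6SPGFP fast replicate 2 (0.0584), and also under trimmed mean scaling (0.0573). On the last one it ended without C6SPGFP slow replicate 2 (0.0537). Among fast cells the last Glul probe set lost its call without C6 fast replicate 2 (0.169), C6SPGFP slow replicates 1 and 2 (0.0677 and 0.067) or C6SPGFP fast replicates 1 and 2 (0.0785 and 0.222), and under trimmed mean scaling (0.0673).

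Mt3 was dim in C6 cells and bright in C6SPGFP cells. Its signal was 10.8 and 8.09 in C6 slow and 8.87 and 10.05 in C6 fast cells. In C6SPGFP it was 167 and 209 in slow and 359 and 369.9 in fast cells. All 4 C6SPGFP arrays lay far above all 4 C6 arrays, whose Mt3 signal of about 10 units is not shown to be above background. Against C6, Mt3 was higher in C6SPGFP by 3.49 ± 0.20 (SE) among slow cells, 11.2-fold on signal + 8 (adjusted p = 9.03e-05). Among fast cells it was higher by 4.42 ± 0.20, 21.4-fold on signal + 8 (adjusted p = 4.88e-06). Both folds lie below the ratios of the mean signals, 188 to 9.44 among slow and 365 to 9.46 among fast cells. The C6 change from slow to fast was 0.01 (95% interval -0.46 to 0.47). In C6SPGFP it was 0.93 ± 0.20, with no overlap of arrays, an unadjusted p of 0.0015 and an adjusted p of 0.0821, which became 0.033 with a pseudocount of 32. The difference of the changes, 0.93 ± 0.29, was not called (adjusted p = 0.152).

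Clu went the other way between the sets. Clusterin read 227 and 232 in C6 slow, 218 and 261 in C6 fast, 116 and 79.85 in C6SPGFP slow, and 123 and 124 in C6SPGFP fast cells. The 4 C6 arrays lay above the 4 C6SPGFP arrays. C6SPGFP was lower by 1.18 ± 0.21 (SE) among slow cells (log2 change -1.18, adjusted p = 0.0133) and by 0.91 ± 0.21 among fast cells (log2 change -0.91, adjusted p = 0.0203). Neither fast minus slow change was called (0.05 in C6, 95% interval -0.42 to 0.53, and 0.33 in C6SPGFP, interval -0.14 to 0.80). Among slow cells Clu lost its call without C6 slow replicate 1 (adjusted p of 0.0596) or C6SPGFP slow replicate 2 (0.107). The fast call ended without C6 fast replicate 2 (0.0971), C6SPGFP fast replicate 1 (0.0953) or C6SPGFP fast replicate 2 (0.102). With the deposited scaling kept on all 8 arrays, where the median of all probe sets was 1.10 among fast cells, Clu was at 0.31 and so -0.79 relative to that median, and the last Glul probe set was at 0.54 and so -0.56 relative to it.

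Set against C6, the C6SPGFP set had 6 of the 13 probe sets called among slow cells and 9 among fast cells. Among slow cells 2 probe sets were higher in C6SPGFP (S100b and Mt3) and 4 lower (Fabp5, 2 of Glul, and Clu), against 6.34% of all probe sets, 3.29% higher and 3.05% lower. The arrays did not overlap for 12 of the 13 among slow cells (51.4% of all probe sets) and for 11 among fast cells (55.6%). The count of 6 became 3 without C6 slow replicate 1 and 2 without C6SPGFP slow replicate 2. Among fast cells 7 were higher (S100b, Ndrg2, Fabp5, both of Nes, Mt3 and Vim) and 2 lower (Glul and Clu), against 15.6% of all probe sets, 8.29% higher and 7.3% lower. The median log2 change of the 13 was -0.35 among slow and 0.59 among fast cells, with 0.01 and -0.03 over all tested probe sets. These comparisons use the same arrays as the fast minus slow changes, so they are not independent of them.

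**Figure D2:**
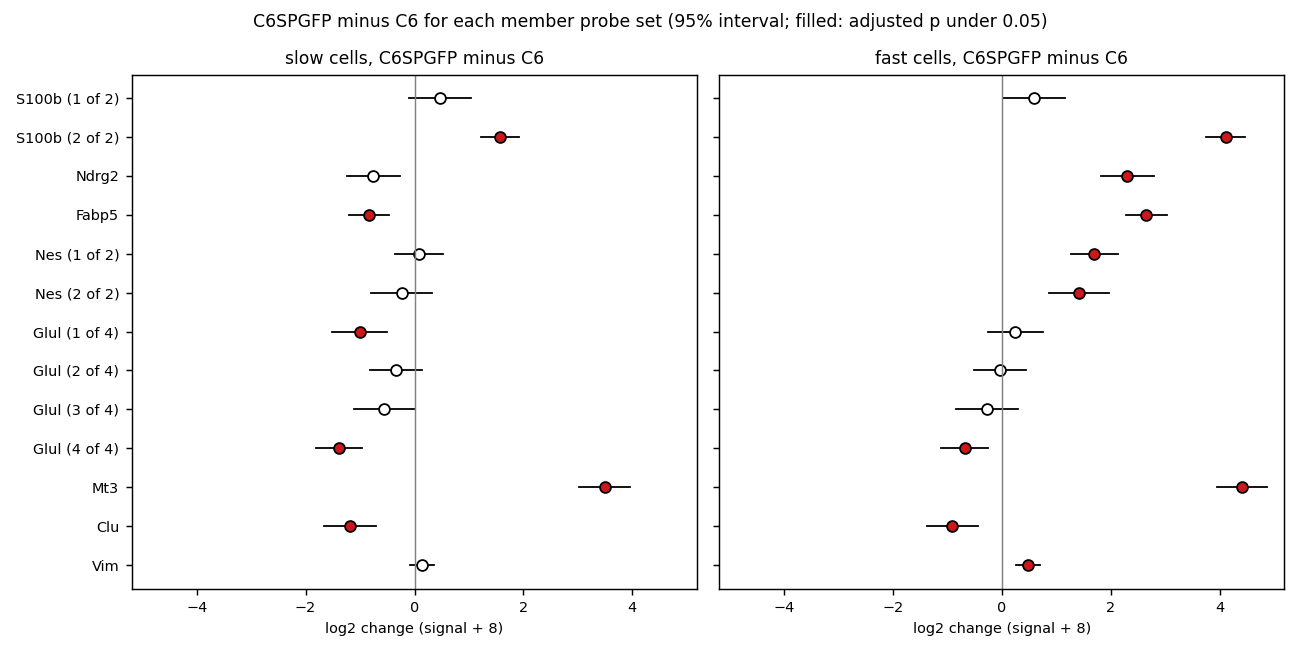
Log2 change of C6SPGFP against C6 for each member probe set, among slow cells (left) and among fast cells (right). Points are limma estimates with 95% intervals, and filled points have an adjusted p under 0.05. Mt3 and the bright S100b probe set lie above 0 and Clu below 0 in both panels, while Fabp5 lies below 0 among slow and above 0 among fast cells.

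Other genes of astroglia and glial progenitors were taken from a list of 61, and each gene was read on its brightest probe set by mean. Of these 43 had a probe set and 35 were tested. Gfap, Sox2 and Sox9 had no probe set under their name, and Aqp4 (2.62 to 3.89 over the group means) and Fabp7 (1.0 to 2.55) lay below the filter. In fast against slow C6 cells 1 of the 35 rose and 2 fell, 8.57% of the list against 6.66% of all probe sets tested. The median change was -0.02. The transcriptional inhibitor Id3 rose from 910.0 to 1670.2 (log2 change 0.87 ± 0.14, SE, adjusted p = 0.00677), and its other probe set gave 0.94 (adjusted p = 0.0515). Ptprz1, a receptor phosphatase of glial progenitors, fell from 84.7 to 1.46 (-3.27 ± 0.25, adjusted p = 0.000124), and its other probe set gave -1.08 (adjusted p = 0.0601). The protease inhibitor cystatin C (Cst3) fell from 390 to 219.6 (-0.80 ± 0.17, adjusted p = 0.0257), and its other probe set gave -0.86 (adjusted p = 0.138). Cst3 lost its call without C6 slow replicate 1 (adjusted p of 0.122), C6 fast replicate 1 (0.081), C6 fast replicate 2 (0.107), C6SPGFP slow replicate 1 (0.053) or C6SPGFP slow replicate 2 (0.0528). Without C6 slow replicate 2 the count was 5 in place of 3.

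In C6SPGFP 1 of the 35 was called, or 2.86%, against 1.39% of all probe sets. It was Kcnj10, the inward rectifier potassium channel of astrocytes, which fell from 92.9 in slow to 6.99 in fast cells (-2.68 ± 0.32, adjusted p = 0.00545) and whose other probe set gave -0.78 (adjusted p = 0.511). The Kcnj10 call ended without C6SPGFP fast replicate 2 (adjusted p = 0.0714), leaving 0 of the list, and the count was 2 without C6 fast replicate 1 or without C6 fast replicate 2. The changes of Ptprz1 and Kcnj10 differed between the sets, by 3.57 ± 0.35 (adjusted p = 0.000771) and by -2.69 ± 0.45 (adjusted p = 0.013). That for Kcnj10 ended without C6SPGFP fast replicate 1 (adjusted p = 0.051) or replicate 2 (0.0597). The count of 2 on the difference was 4 without C6 slow replicate 2 or without C6 fast replicate 1, and 1 without either C6SPGFP fast array.

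**Figure D3:**
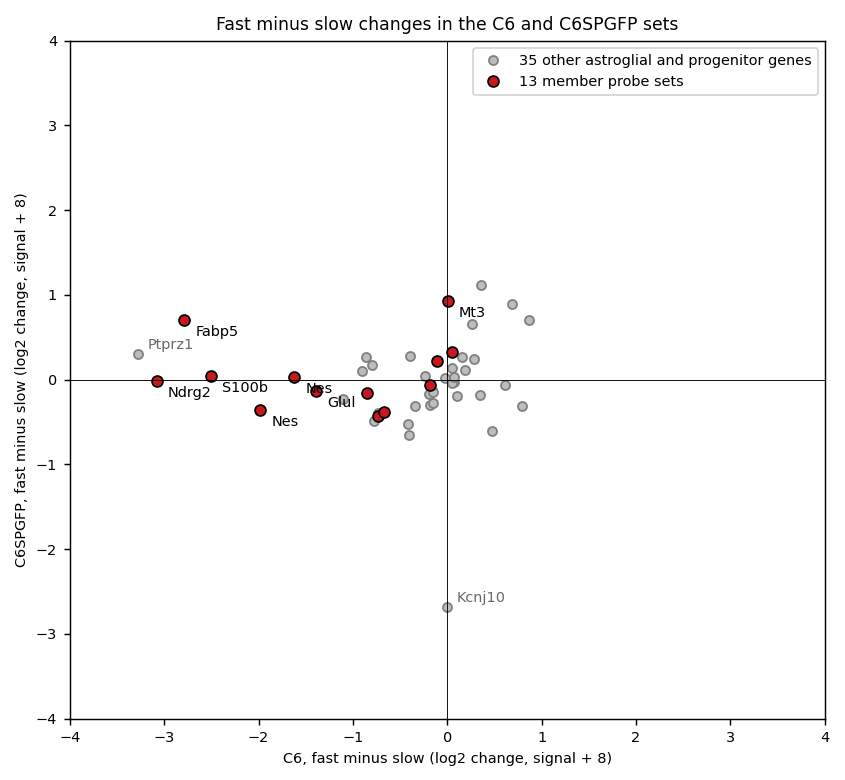
Fast minus slow log2 change in C6 (horizontal) and in C6SPGFP (vertical) for the 13 member probe sets (red) and the 35 other astroglial and progenitor genes (grey). The members with large C6 changes lie to the left near the horizontal line, and of the grey points Ptprz1 lies among them and Kcnj10 at the bottom.

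More of the list separated the sets. Among slow cells 6 of the 35 were higher in C6SPGFP and 2 lower, 22.9% of the list against 6.34% of all probe sets. The highest changes were those of Kcnj10 (2.87), the perineuronal matrix proteoglycan brevican (Bcan, 1.84), Ptprz1 (1.68) and the progenitor growth factor receptor Pdgfra (1.33). On other probe sets Kcnj10 was called among slow cells too (1.79, adjusted p = 0.018), while Ptprz1 (0.78, adjusted p = 0.157) and both of Pdgfra (0.99 and 1.05, adjusted p = 0.0946 and 0.136) were not. The gap junction gene Gja1 (-1.57) and Id3 (-1.23) were lower. Among fast cells 7 were higher and 3 lower, 28.6% against 15.6%. Ptprz1 (5.25), Bcan (2.13), Cst3 (1.61) and Pdgfra (1.36) led the increases, and Id3 (-1.39), Notch2 (-1.20) and Gja1 (-1.17) were lower. On other probe sets Ptprz1 (2.04), Cst3 (1.87) and Id3 (-1.66) were called among fast cells too (adjusted p = 0.00169, 0.00319 and 0.00198), while both of Pdgfra (0.73 and 0.69, adjusted p = 0.147 and 0.256) were not. The count of 8 among slow cells was 5 without C6SPGFP slow replicate 1 and 2 without C6SPGFP slow replicate 2. Among slow cells Bcan (adjusted p = 0.0787) and Pdgfra (0.0526) lost their calls without C6SPGFP slow replicate 2, Ptprz1 without either C6SPGFP slow array (0.054 and 0.0537), and Gja1 without C6 slow replicate 2 (0.0587) or either C6SPGFP slow array (0.0733 and 0.0825). Among fast cells Gja1 lost its call without either C6 fast array (0.0755 and 0.085) or C6SPGFP fast replicate 1 (0.127), and Notch2 without either C6 fast array (0.0645 and 0.0692) or C6SPGFP fast replicate 2 (0.11).

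Lists of genes related to single members were read in the same way, against 6.66% of all probe sets called in C6 and 1.39% in C6SPGFP. Of 10 tested intermediate filament genes, peripherin (Prph), a filament of peripheral neurons, fell in C6 from 211 to 33.1 (-2.38 ± 0.27, adjusted p = 0.00104), 10% of the list, and none was called in C6SPGFP. Of 9 genes of glutamate and glutamine metabolism, the glutamate decarboxylase Gad1 fell in C6 from 24.7 to 2.55 (-1.62 ± 0.22, adjusted p = 0.00241), 11.1% of the list, and none in C6SPGFP. The changes differed between the sets by 2.63 ± 0.39 for Prph (adjusted p = 0.00768) and by 1.70 ± 0.30 for Gad1 (adjusted p = 0.0187). The Gad1 difference was lost without C6 fast replicate 2 (0.0561) or any C6SPGFP array (0.0562 to 0.0913). Of 7 other fatty acid binding proteins, relatives of Fabp5, all 7 had a probe set, 1 passed the filter and it was not called between fast and slow cells. Of 2 tested relatives of Ndrg2 none was called between fast and slow cells on the probe set used, but the other Ndrg4 probe set was called higher in fast C6 cells (1.48 ± 0.19, adjusted p = 0.00183). No metallothionein other than Mt3 had a probe set under its name.

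Markers of other cell types were read on the same arrays. The summed signal of 9 oligodendroglial and Schwann markers was 1870 to 2259 in C6 slow, 1287 to 1513 in C6 fast, 4318 to 4520.1 in C6SPGFP slow and 2853 to 3472 in C6SPGFP fast cells. Pmp22 was the brightest of them, with means of 970, 1075, 2308 and 1787 in the same order. From slow to fast C6 cells the sum fell although the Pmp22 mean did not. In the same order Cnp had means of 451, 89.0, 1245 and 651, and Sox10 had means of 304, 1.56, 551 and 422. Among slow cells 4 of the 9 were higher in C6SPGFP than in C6, and 5 were lower (Mbp, Mag, Mog, Mobp and Ugt8). Only Cnp (1.46) and Pmp22 (1.25) were called there, both higher, 22.2% against 6.34% of all probe sets. Among fast cells Sox10 (5.49), Cnp (2.77) and Pmp22 (0.71) were called higher and none lower, 33.3% against 15.6%. The other Pmp22 probe set was not called among slow (0.26, adjusted p = 0.683) or fast cells (0.17, adjusted p = 0.774). Of the 9, Sox10 and Cnp fell in fast C6 cells (-5.00 and -2.23), 22.2% against 6.66% of all probe sets, and Cnp in fast C6SPGFP cells (-0.93, adjusted p = 0.0453), 11.1% against 1.39%. That Cnp call in C6SPGFP was lost without any 1 of the C6 fast or C6SPGFP arrays (0.057 to 0.343). The sum of 8 microglial and haematopoietic markers was 160 to 193 in C6 slow and 222 to 241 in C6 fast cells, and 171 to 194 over the C6SPGFP arrays. Of 5 tested, only Cd37 was called in C6, higher in fast cells (1.41, adjusted p = 0.0271), 20% against 6.66% of all probe sets. That call was lost without either C6 slow array, C6 fast replicate 2 or either C6SPGFP fast array. Cd37 was also the only one called among fast cells, lower in C6SPGFP than in C6 (-1.10, adjusted p = 0.0417), 20% against 15.6%. Itgam, Cd74 and C1qb stayed below the filter. The 8 neuronal markers summed to 275 to 312 in C6 slow, 263 to 263 in C6 fast and 400.1 to 464 over the C6SPGFP arrays, with Syt1 and Slc17a7 below the filter. They include Gad1, with means of 24.7, 2.55, 112 and 118 in the order of groups above. Of 6 tested, only Gad1 was called in C6 (lower in fast cells, 16.7% against 6.66%). Gad1 was called higher in C6SPGFP among slow cells (16.7% against 6.34%), and Gad1 and Gap43 among fast cells (33.3% against 15.6%). The 8 endothelial and mural markers summed to 512 to 599 over all arrays, with Kdr below the filter and none called in any comparison. The part of these markers in the results was not tested.

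Across the 8 arrays the members that fell in C6 varied in how alike their profiles were. Pearson's r of the log2 signals lay between 0.91 and 0.98 for each pair among Ndrg2, Fabp5 and the 2 Nes probe sets. Bright S100b had r from 0.78 to 0.88 with these. Glul stood apart, with r from 0.19 to 0.74 for M91652complete_seq_at and from -0.45 to 0.19 for rc_AI232783_s_at against S100b, Ndrg2, Fabp5 and Nes. All these r share the same 8 arrays, with C6 fast low, and carry no test. The probe sets of other genes most like the bright S100b probe set were Ptprz1, Calcb (a neuropeptide gene) and Gfra1 (a GDNF receptor), each with r = 0.99. Each of these 3 was lowest in C6 fast cells and higher in C6SPGFP than in C6. Most like Ndrg2 were Acadl, Ddah1 and Uchl1 (r from 0.98 to 0.99), and most like Fabp5 were Aldh2, Bmp7 and F3 (0.98 to 0.99). Bmp7, a bone morphogenetic protein, had means of 87.8 in slow and 4.26 in fast C6 cells, and of 43.2 in slow and 121.9 in fast C6SPGFP cells. M34384_at of Nes was most like Syt17, Crmp1 and Phldb1 (0.97 to 0.99), and its dim probe set most like Milr1, Uchl1 and Aopep (0.98 to 0.99). Glul was less closely matched, with r from 0.94 to 0.97 for Cd28, Ptpn1 and Cubn on the first probe set and for Aqp5, Gnl3 and Pea15 on the last.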

How the data were processed

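RNA of 8 samples in 4 groups was measured on oligonucleotide arrays. The authors deposited 1 intensity per probe set on a linear scale (0 to 14287.9), for 8799 probe sets including 59 controls. The program behind these signals is not stated in the labels or headers. Because the trimmed means of the deposited signals differed, arrays were quantile normalised (trimmed mean 150.9). A pseudocount of 8 was added before log2, and the 6684 probe sets whose normalised signals averaged 8 or more were tested, while 2056 were left out. A model of 4 group means was fitted with limma 3.58.1 (R 4.3.3; lmFit, eBayes with a trend), two-sided, with Benjamini-Hochberg adjustment over all tested probe sets in each of 5 comparisons. It left 4 residual and 4.49 prior degrees of freedom. It was tested on simulated data.

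Gene names were those of the platform annotation, brought to current symbols through Entrez identifiers (6994 of 7018 probe sets with a single symbol). All member probe sets were named. From the lists, up to 4 called genes per direction with the largest change were named, and the 3 genes most alike each member probe set called between fast and slow cells. Other genes were named where a count was small. The members and lists were chosen with earlier results of these data known. Alternatives changed the scaling, pseudocount, filter, moderation, arrays fitted and replicate block, and left out each array; a fit of the deposited scale on 7 arrays was added after seeing the data.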

Additional observations from a re-analysis of the deposited data

Results flagged for a closer look

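The fast minus slow change differed between the sets, by limma's test of the difference (C6SPGFP minus C6, log2), for 5 member probe sets: S100b S53527mRNA_s_at (2.55), Ndrg2 (3.07), Fabp5 (3.49), Nes M34384_at (1.62) and Nes rc_AI030685_s_at (1.65). Among the listed genes it differed for Kcnj10 (-2.69), Ptprz1 (3.57), Gad1 (1.70), Prph (2.63), Cnp (1.31) and Sox10 (4.62). Kcnj10 was the single one with a negative difference. Groups of 2 arrays are too small for the check of outlying samples, which needs 4.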

How the results depend on the processing

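Keeping the deposited scaling, with 1 array at its own scale, left 0 of 7 member calls in C6 fast against slow cells, 0 of 5 on the difference, 0 of 6 between slow and 4 of 9 between fast cells. The C6 changes stayed near their size (S100b -2.60, Ndrg2 -2.63, Fabp5 -2.92, Nes -2.10), while their SEs were 0.86 to 0.96 against 0.16 to 0.21 after quantile normalisation. These C6 changes use the C6 arrays only, so leaving out the C6SPGFP array at its own scale could not alter them. Of the other astroglial genes, keeping the deposited scaling on all 8 arrays left 0 of 3, 0 of 1, 0 of 2, 0 of 8 and 2 of 10. The order is C6, C6SPGFP, the difference, slow and fast cells. That scaling brought the median change of all probe sets among fast cells from -0.03 to 1.10. It turned the sign of Glul rc_AI232783_s_at (0.54), Clu (0.31), Notch2 (0.057), Got2 (0.60), Lmnb1 (0.42) and Cd37 (0.12) among fast cells and of Cnp in C6SPGFP (0.27). It also raised the share of calls that were positive, among fast cells, from 53.2% to 93.5%. On the 7 arrays of like scale that share was 63.3%, and 3 members and 1 other gene were called on the difference. In C6SPGFP 1 member was called with a pseudocount of 32 and 1 with only those arrays fitted, where 2 other genes were called. With the filter at the 50th percentile 0 other genes were called in C6SPGFP and 1 on the difference. Leaving out single arrays gave 6 to 7 members in C6, 0 to 0 in C6SPGFP, 3 to 5 on the difference, 2 to 6 between slow and 6 to 9 between fast cells. For the other genes it gave 2 to 5, 0 to 2, 1 to 4, 2 to 9 and 8 to 12. The cause was not tested. Replicate numbers were shared by the groups, but the labels do not say if same-numbered arrays have more than a number in common. The r of their deviations was 0.27 between slow and fast cells in C6 and 0.10 in C6SPGFP. With the replicate block 7, 0, 4, 6 and 8 members were called; Nes rc_AI030685_s_at lost its call on the difference (adjusted p = 0.0532) and Glul rc_AI232783_s_at that among fast cells (0.0564). Of 1147 member changes recomputed, 1065 kept direction and side of the threshold or were uncalled throughout.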
